A study of Mus musculus with 23 samples.

Results

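The regulatory T (Treg) cells of the mouse spleen were followed here through Foxp3, the transcription factor that defines this CD4 lineage. Spleen cells were chosen by their own transcripts. A droplet barcode was taken as a Foxp3-gated cell if it held at least 500 detected genes and at most 10% mitochondrial unique molecular identifiers (UMIs), at least 1 UMI of Foxp3, at least 2 summed UMIs of Cd3d, Cd3e and Cd3g, none of Cd8a or Cd8b1, and at most 1 of Cd79a. Of 20500 barcodes in the 3 spleen libraries, 730 met this rule, 217 in wild-type (WT), 199 in Y665H and 314 in Y665F. The whole series held 139967 barcodes in 16 expression libraries. All libraries came from C57BL/6 mice aged 2 months, and per the methods the altered mice were made in C57BL/6N eggs. WT mice carried unaltered Stat5b, and the other mice carried a histidine (Y665H) or a phenylalanine (Y665F) in place of 1 tyrosine of the SH2 domain of STAT5B. The labels give no zygosity for the spleen. Per the study's text, CD45+ spleen cells of several mice were combined, so each genotype is 1 library. No difference between genotypes could be tested, and all intervals below are 95% intervals that cover counting error only.

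Treg cells restrain other immune cells and depend on interleukin-2 (IL-2), which they bind with high affinity through the alpha chain of its receptor, encoded by Il2ra. The receptor activates the Janus kinases JAK1 and JAK3, which phosphorylate STAT5A and STAT5B. Phosphorylated STAT5 dimers enter the nucleus and bind palindromic DNA sites, and among their known targets are Foxp3, Il2ra and the feedback inhibitors Cish and Socs2. Resting Treg cells circulate through lymphoid organs with homing molecules such as the chemokine receptor Ccr7, and effector Treg cells lose these and gain tissue-homing and suppressive molecules.

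The allele that separates the libraries lies in exon 16 of Stat5b on the minus strand of chromosome 11. The codon of this tyrosine occupies chr11:100787291-100787293 of GRCm38 in the GENCODE vM21 annotation. The guide used for both alleles is shown with its PAM in capitals, and below it the reference site on the coding strand, chr11:100787287-100787309, with that codon in capitals.
Guide: tgaggtaattcaggtcccccAGG
Site: cctgggggacctgaatTACctca

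Stat5b itself was near the same level in the gated cells of the 3 libraries. Levels are given as CPM, the UMIs of a gene scaled to a sum of 1000000 UMIs over the gated cells of a library. Stat5b was at 96.4 CPM in WT, 101 in Y665H and 81.4 in Y665F, and the ratio of Y665F to WT was 0.845 (0.66 to 1.08). Its paralog Stat5a was at 35.7, 25.8 and 30.3 CPM, with a ratio of Y665F to WT of 0.847 (0.561 to 1.29). Both intervals include 1. Reads of the altered and the unaltered codon were not separated.

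The gated cells carried the transcripts of Treg cells. The 6 Treg markers other than Foxp3 were all higher in gated cells than in conventional CD4 T cells of the same libraries (Foxp3 zero, Cd4 at least 1 UMI, 1322 WT, 1533 Y665H and 722 Y665F cells) in edgeR's quasi-likelihood test on summed counts, with the library as a block and the genes of the gates left out. As the gate itself separates these cells, this is a check of the label. Among 10009 genes tested, 380 (3.80%) were higher and 146 (1.46%) lower in the gated cells at an adjusted p below 0.05 and over 2-fold. Of the 20 genes on the Treg identity list, 19 were tested and 18 were higher, the exception being Tgfb1, at a log2 difference of 0.22 ± 0.09 (SE, adjusted p = 0.0888 in edgeR).

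Among genes with a mean of at least 20 CPM over the 6 sums, the 4 with the largest differences from conventional cells encode surface proteins. Klrg1, a lectin-like receptor of terminally differentiated lymphocytes, was higher by 4.48 ± 0.22 on the log2 scale (SE, adjusted p = 4.36e-14 in edgeR). Lrrc32, which encodes the GARP protein that anchors latent TGF-beta, was higher by 4.18 ± 0.19 (adjusted p = 5.47e-15 in edgeR). Il2ra was higher by 4.06 ± 0.12 (adjusted p = 1.21e-18 in edgeR) and Itgae, the integrin CD103, by 3.91 ± 0.20 (adjusted p = 4.36e-14 in edgeR). Cd83, Penk, Gzmb, Gpr83, Tnfrsf9 and Ikzf2 completed the 10 genes highest in gated cells, with log2 differences between 3.08 and 3.45. The IL-2 receptor beta chain gene Il2rb and the STAT5 targets Cish and Socs2 were also higher in gated cells, by 2.05, 2.02 and 2.51 on the log2 scale. The 10 genes lowest in gated cells, among those with this mean level and the same direction in all 3 libraries, were Pdlim4, Vipr1, Pde3b, Tgfbr3, Ifi208, Dapl1, Tdrp, Igfbp4, St8sia1 and Cd40lg, which encodes the ligand through which helper T cells stimulate B cells, with log2 differences from -2.51 to -1.74. The neutrophil genes Camp (-2.11) and Ngp (-1.81) were also called lower but not in all 3 libraries. Also lower were the transcription factors Tcf7, Lef1 and Satb1 of naive T cells (log2 differences of -1.50, -1.21 and -1.12). Of the 18 genes on the resting list, 6 were lower and 0 higher. Without the library block, 253 of the 10009 genes were higher and 84 lower. With the strictest exclusion of barcodes with markers of other lineages, only 4497 genes were tested, of which 68 were higher and 27 lower.

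**Figure D1:**
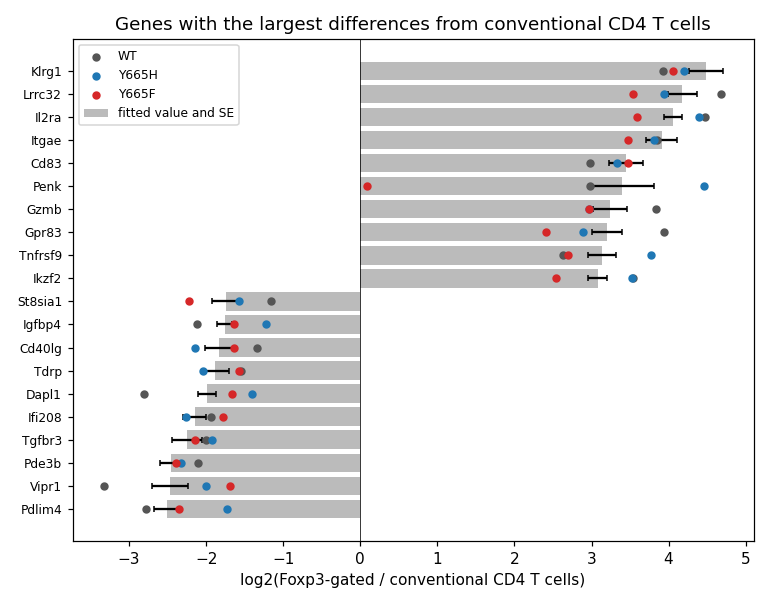
Log2 difference between Foxp3-gated and conventional CD4 T cells for the 10 genes with the largest difference in each direction, among genes with a mean of at least 20 CPM chosen to differ the same way in all 3 libraries. Bars give the fitted value and its SE, and points give each library's own log2 ratio of (CPM + 1), which pulls low genes toward 0. The libraries lie on 1 side of 0 by this choice, and Penk in Y665F lies closest to it.

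Foxp3 was found at a similar level in the gated cells, 461 CPM in WT, 450 in Y665H and 474 in Y665F, as it was used to choose them. Exactly 1 Foxp3 UMI was found in 81 WT, 80 Y665H and 101 Y665F gated cells. Just outside the rule, 25 WT, 20 Y665H and 37 Y665F cells met every other limit with 1 UMI of Cd8a or Cd8b1, and 6, 6 and 2 cells held 2 or more UMIs of Cd79a. Cd4 was not part of the rule and was detected in 59.4% of WT, 66.8% of Y665H and 59.6% of Y665F gated cells. The gated cells held a median of 5180 UMIs in WT, 5019 in Y665H and 5819.5 in Y665F. No barcode was gated in more than 1 library. A barcode gated in only 1 of the 2 libraries was present in both once for WT and Y665H and once for WT and Y665F.

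Transcripts of other blood cells were present in the gated cells and differed between libraries. Of 11 neutrophil markers, 7 passed the level filter, and their list summed to 32.4 CPM in WT, 1133 in Y665H and 2201 in Y665F. A single barcode held 83.3% of the S100a9 UMIs in Y665F, and 1 held 43.7% in Y665H. In conventional CD4 T cells S100a9 was at 10.8, 497 and 1154 CPM in the same order, also lowest in WT. In B cells it was at 14.9, 1384 and 350 CPM, highest in Y665H. The erythroid list summed to 13.3, 175 and 5.22 CPM, the B cell list to 437, 622 and 473 CPM, which was mostly Ighm, and the natural killer list to 24.1, 22.3 and 2.09 CPM. Cd8a and Cd8b1 were at 0 by the rule. The part of these transcripts in the results below was not tested.

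**Figure D2:**
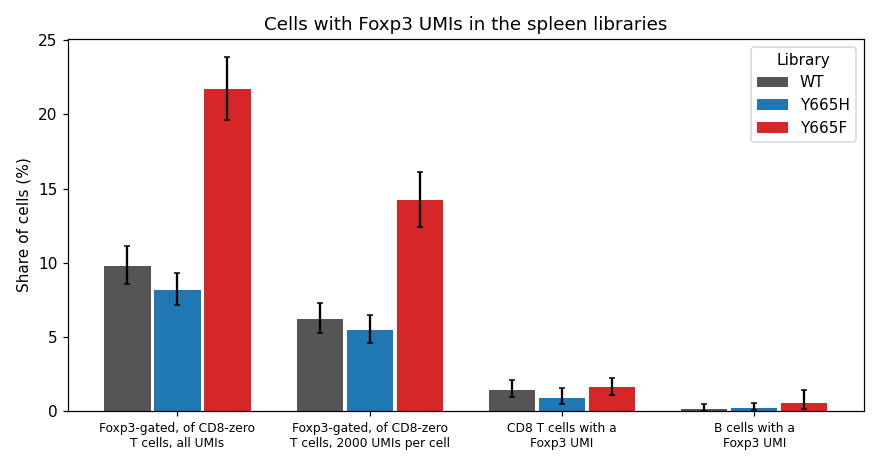
Share of cells (%) in the WT, Y665H and Y665F libraries with exact 95% binomial intervals. The first 2 groups of bars give Foxp3-gated cells among T cells without CD8 transcripts, with all UMIs and with each cell thinned to 2000 UMIs, and the last 2 give cells with a Foxp3 UMI among CD8 T cells and B cells. The Y665F bar is the highest in both gated groups, at 21.7% and 14.2%.

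Foxp3-gated cells took the largest share of T cells in the Y665F spleen. Among cells with T-cell receptor complex transcripts and no CD8 transcripts they were 9.75% in WT (8.55 to 11.1, exact binomial interval, 217 of 2225 cells), 8.18% in Y665H (7.12 to 9.34, 199 of 2433) and 21.7% in Y665F (19.6 to 23.9, 314 of 1447). The Y665F share was 2.23 times the WT share (1.87 to 2.66), and the Y665H share was 0.839 times it (0.688 to 1.02). As a share of all cells that passed the limits, gated cells were 3.22% in WT, 2.53% in Y665H and 6.35% in Y665F. When each cell was thinned to 2000 UMIs, the shares were 6.21%, 5.46% and 14.2%. A Foxp3 UMI was found in 0.138% of WT, 0.209% of Y665H and 0.559% of Y665F B cells, and in 1.43%, 0.906% and 1.60% of CD8 T cells, all below the gated shares. The median depth was 3932, 3904 and 3841.5 UMIs in B cells and 6948, 7157 and 8889.5 in CD8 T cells. In the strictest exclusion of barcodes with markers of other lineages, which left 71 WT, 7 Y665H and 18 Y665F gated cells, the ratio of Y665F to WT was 1.24 (0.696 to 2.10). A narrower exclusion used B, natural killer and myeloid genes such as Cd79b, Ncr1 and Csf3r, but not S100a8, S100a9 or Ngp. With it, 211, 186 and 308 cells were left, and the ratio of Y665F to WT was 2.20 (1.84 to 2.63).

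Across all genes with a mean of at least 20 CPM in gated cells, few genes were past 2-fold in either allele. Of 5778 such genes, 68 (1.18%) were at least 2-fold higher in Y665F than in WT and 54 (0.935%) were at or below 0.5-fold. In Y665H, 102 genes (1.77%) were at least 2-fold higher and 13 (0.225%) were at or below 0.5-fold. A ratio this far from 1 is a difference between libraries and not a test of the genotype. The median log2 ratio over these genes was -0.09 for Y665F and 0.05 for Y665H. Scaling by TMM, which raised the Y665F ratios by 0.12 on the log2 scale, gave 95 higher and 30 lower genes in Y665F and 91 and 23 in Y665H.

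The negative feedback genes of cytokine signaling were among the higher genes in Y665F. Of 17 STAT5 target genes that passed the level filter, of 20 listed, 4 were at least 2-fold higher in Y665F and 0 were 2-fold lower. Over all genes these shares were 1.18% and 0.935%, and the median log2 ratio of the 17 was 0.32. The list was chosen with earlier results of these data known. Per the study's text, Cish and Gzmb, which are among the 4, were enriched in Y665F central memory T cells of the spleen. The count is therefore not independent of such results. The Y665F interval lay above 1 for 8 of the 17 and below 1 for 2, against 6.85% and 15.1% of all genes. Cish, which encodes an inhibitor that binds activated cytokine receptors, was at 142 CPM in WT, 97.0 in Y665H and 292 in Y665F, a ratio of Y665F to WT of 2.05 (1.73 to 2.45) and of Y665H to WT of 0.683 (0.534 to 0.871). Socs2, another member of this inhibitor family, was at 51.5, 24.9 and 123 CPM, with ratios of 2.38 (1.79 to 3.20) and 0.483 (0.300 to 0.763). The WT level of both genes lay between the levels of the 2 alleles. Socs3 was higher in both alleles, at 30.7 CPM in WT, 67.0 in Y665H and 71.5 in Y665F. With thinning to 2000 UMIs per cell, the log2 ratio of Socs3 was 0.57 in Y665F and 0.63 in Y665H, and that of Socs2 was 0.82 in Y665F, all under 2-fold. With Cd4 required, that of Socs2 was -0.35 in Y665H in place of -1.05.

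Survival and receptor genes lay closer to WT in Y665F. The anti-apoptotic gene Bcl2 was at 455 CPM in WT, 297 in Y665H and 569 in Y665F, and Il2ra was at 425, 267 and 498 CPM. For Il2ra the ratio was 1.17 (1.05 to 1.31) in Y665F and 0.629 (0.545 to 0.726) in Y665H. The kinase gene Pim1 was at 390, 361 and 570 CPM, and the cyclin gene Ccnd2 at 741, 546 and 763 CPM. Of the 17 listed targets, the Y665H interval lay below 1 for 7 genes and above 1 for 2, against 4.90% and 9.99% of all genes, and the median log2 ratio was -0.44. Among the cytokine receptors, Il2rb was at 347, 318 and 523 CPM, and Il7r, the IL-7 receptor alpha chain, at 372, 388 and 529 CPM. The signal-transducing chain Il6st was lower in Y665F, at 163 CPM in WT and 92.9 in Y665F. Of 22 genes of cytokine receptors, Janus kinases and STATs that passed the filter, 1 was past 2-fold in Y665F, Il1rl1, and 0 in Y665H. Over all genes, 1.18% were at least 2-fold higher and 0.935% at or below 0.5-fold in Y665F, and 1.77% and 0.225% in Y665H.

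**Figure D3:**
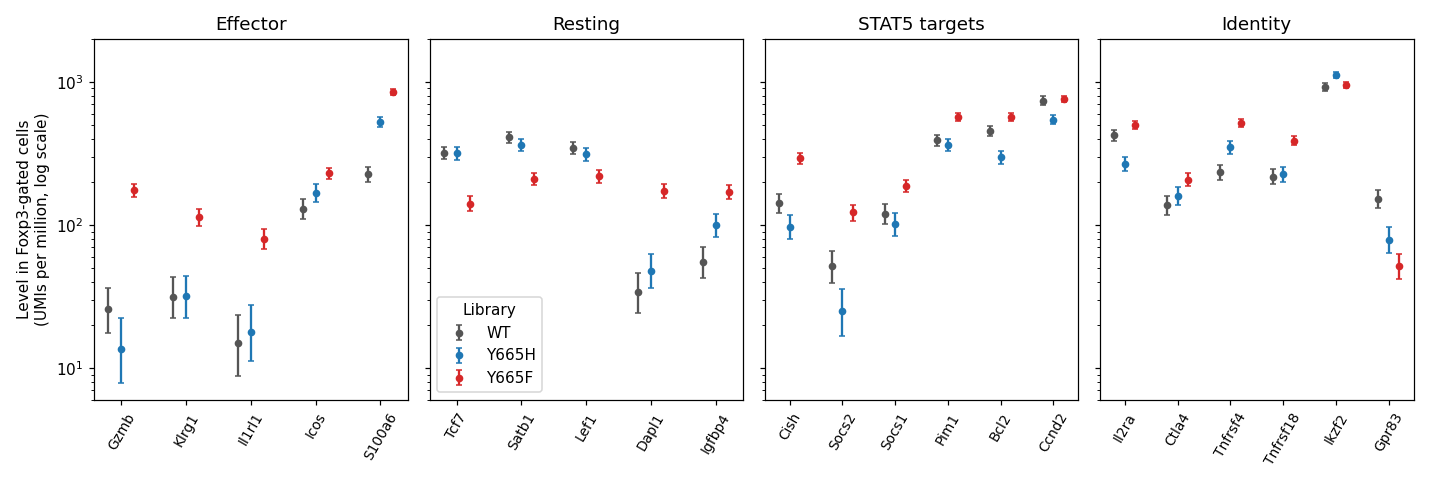
Level of listed genes in Foxp3-gated cells (CPM, log axis) in each library, with exact 95% Poisson intervals. Gzmb, Klrg1 and Il1rl1 stand highest in Y665F, Tcf7 and Satb1 stand lowest there, and for Cish, Socs2, Bcl2 and Il2ra the WT point lies between a lower Y665H point and a higher Y665F point.

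STAT5 dimers bind the palindrome TTCNNNGAA, which reads the same on both strands. This motif was searched in the 300 bases from 250 before to 50 after the annotated start (RefSeq, GRCm38.p6). It was found at least once in 7.81% of 4660 genes that passed the level filter and had a promoter in the table, and in 8 of the 16 listed STAT5 targets that had one. Among the named genes with the highest Y665F ratios to WT, 1 of 9 with a promoter (11.1%) held it, and among those with the lowest, 0 of 11. The windows with the motif in capitals are shown for Cish (chr9:107296654-107296683, plus strand, 2 copies), Gzmb (chr14:56262285-56262302, minus strand) and Socs3 (chr11:117969507-117969525, minus strand). All were at least 2-fold higher in Y665F, but Socs3 was also higher in Y665H.
Cish: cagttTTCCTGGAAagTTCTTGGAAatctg
Gzmb: gagttTTCATAGAAagca
Socs3: cagccTTCTTAGAAgggag
A match is a description of the letters in this window only. The list was chosen for known STAT5 targets, and Pim1, Bcl2, Socs1 and Il2ra held none. Lta, Irf8 and Il18r1 also held 2 copies, and their ratios of Y665F to WT were 0.501 (0.345 to 0.724), 0.657 (0.425 to 1.02) and 0.580 (0.403 to 0.835).

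Most effector genes were higher in the Y665F cells and, by less at the median, in the Y665H cells. Of 19 effector genes that passed the filter, of 25 listed, 7 were at least 2-fold higher in Y665F and 0 were 2-fold lower. Over all genes these shares were 1.18% and 0.935%, and the median log2 ratio of the 19 was 0.80. The interval lay above 1 for 16 of the 19, as it did for 6.85% of all 5778 genes. In Y665H, 3 of the 19 were at least 2-fold higher and 1 was 2-fold lower, against 1.77% and 0.225% of all genes. The Y665H interval lay above 1 for 11, as for 9.99% of all genes, and the median log2 ratio was 0.61. Klrg1 was at 31.6 CPM in WT, 31.8 in Y665H and 113 in Y665F, a ratio of Y665F to WT of 3.59 (2.53 to 5.21). Il1rl1, the ST2 receptor for the alarmin IL-33, was at 15.0, 18.0 and 79.9 CPM, with a ratio of 5.34 (3.27 to 9.25). Gzmb, the protease granzyme B, was at 25.8, 13.7 and 175 CPM, with a ratio of 6.81 (4.71 to 10.2). In WT a single barcode held 80.6% of the 31 Gzmb UMIs, and without each library's top barcode the log2 ratio was 4.99 in place of 2.77. With the narrower exclusion of other lineages it was 5.72, and that of Y665H to WT was 1.62 in place of -0.91. The calcium-binding protein genes S100a6 and S100a4 were higher in both alleles, S100a6 at 226, 529 and 853 CPM and S100a4 at 257, 635 and 637 CPM. The rise of S100a6 in Y665H was shared by B cells, at 2.30 times WT (1.99 to 2.67) against 2.34 (2.03 to 2.71) in gated cells. In Y665F it was at 1.25 times WT (1.01 to 1.53) in B cells and 3.77 (3.32 to 4.31) in gated cells. The sum of the neutrophil list was also lowest in WT and highest in Y665F, where 1 barcode held most S100a9 UMIs. In the narrower exclusion of other lineages, which did not use S100a8 or S100a9, the log2 ratio of Y665F to WT was 2.38 for S100a6 and 1.75 for S100a4. With Cd4 required it was 0.95 for S100a4, under 2-fold. The remaining genes past 2-fold in Y665F were Fgl2, at 19.9, 30.9 and 48.0 CPM, and the chemokine receptor gene Ccr2. Ccr2 is also on the list of myeloid markers, which with Ccr2 included summed to 126, 379 and 232 CPM. In Y665H the chemokine gene Ccl5 was lower, at 123 CPM in WT and 53.2 in Y665H, but 1 WT barcode held 53.4% of its UMIs and its log2 ratio was -0.04 in place of -1.21 with the narrower exclusion. The costimulator Icos was at 130, 168 and 230 CPM, and Gata3 at 129, 120 and 188 CPM. Il10, the suppressive cytokine, was below the filter with 2 UMIs in WT, 1 in Y665H and 20 in Y665F, the last from 8 cells.

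Shares of cells were read at a fixed depth. Each thinning was 1 random draw of UMIs, and the spread between draws was not measured. Gzmb and Il1rl1 were added to this reading after their levels were seen. At 2000 UMIs per cell, a Klrg1 UMI was found in 1.86% of WT, 4.55% of Y665H and 11.9% of Y665F gated cells, and in at most 0.0700% of B cells. Gzmb was found in 0.930%, 2.02% and 15.1%, and Il1rl1 in 2.79%, 3.03% and 14.1%. Icos was found in 18.6%, 18.7% and 30.2% of cells. Itgae was found in 5.58%, 9.09% and 12.5%. Without thinning, Klrg1 was found in 3.69%, 6.03% and 20.1% of cells. The Y665F interval for Klrg1, Gzmb and Il1rl1 lay above that of WT in each case.

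Most resting Treg genes were lower in Y665F and fewer in Y665H, with Dapl1 and Igfbp4 as exceptions. Of 17 genes on the resting list that passed the filter, 14 had an interval below 1 in Y665F, as did 15.1% of all 5778 genes. Of the 17, 1, Tcf7, was at or below 0.5-fold, against 0.935% of all genes. In Y665H the interval lay below 1 for 9 of the 17, as for 4.90% of all genes, and above 1 for 1, and the median log2 ratio was -0.27 against -0.56 in Y665F. Tcf7, a transcription factor of naive and stem-like T cells, was at 319 CPM in WT, 318 in Y665H and 141 in Y665F, a ratio of Y665F to WT of 0.443 (0.378 to 0.519). Satb1 was at 411, 365 and 210, and Lef1 at 345, 312 and 219. At 2000 UMIs per cell, Ccr7 was found in 17.2% of WT, 16.2% of Y665H and 11.3% of Y665F gated cells and in 18.5%, 23.6% and 25.0% of B cells. In gated cells the intervals of WT and Y665F overlapped at this depth, but at 3000 UMIs, with shares of 29.1% and 16.9%, they did not. The same reading found S1pr1, a receptor for exit from lymphoid organs, in 47.0%, 33.3% and 32.5% of gated cells, but without thinning it was found in 64.5%, 56.3% and 63.4%, and at 3000 UMIs per cell in 48.5%, 46.7% and 47.3%. Dapl1 was at 34.1, 48.1 and 173 CPM and Igfbp4 at 54.8, 100 and 170 CPM, 5.09 (3.67 to 7.22) and 3.09 (2.37 to 4.09) times the WT level in Y665F.

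**Figure D4:**
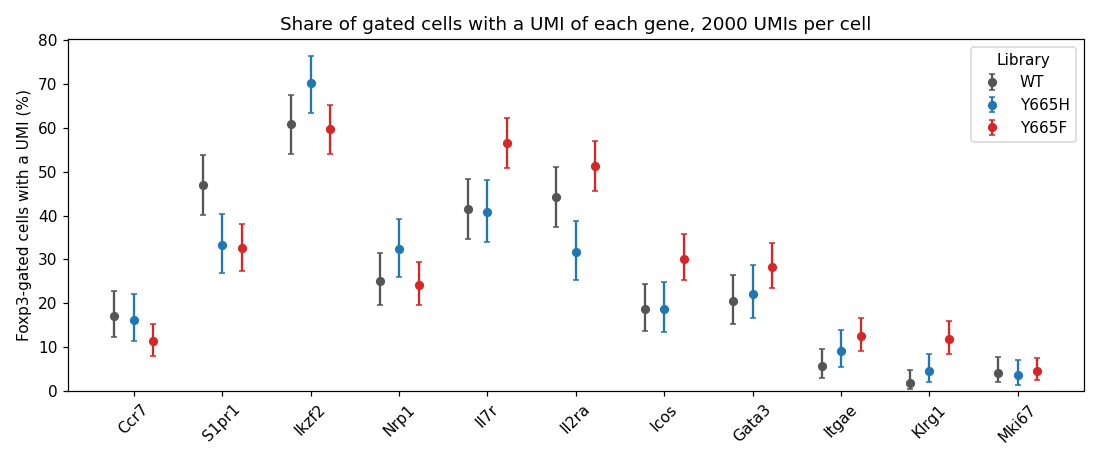
Share of Foxp3-gated cells with at least 1 UMI of each gene, after each cell was thinned to 2000 UMIs, with exact 95% binomial intervals. Icos is found in 18.6% of WT and 30.2% of Y665F cells, Klrg1 in 1.86% and 11.9%, and Mki67 is found in 4.19%, 3.54% and 4.50% of WT, Y665H and Y665F cells.

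Few gated cells of the Y665F library held both Klrg1 and Dapl1. These gene pairs were chosen after their levels were seen. Of 63 Y665F cells with a Klrg1 UMI, 37 (58.7%) also held Il1rl1, which was found in 13.5% of cells without Klrg1. Gzmb was found in 33.3% of the Klrg1 cells and in 18.3% of the others. Of 78 Y665F cells with a Dapl1 UMI, 51 (65.4%) held Igfbp4 and 4 (5.13%) held Klrg1, which was found in 25.0% of cells without Dapl1. In WT, 0 of 18 Dapl1 cells held Klrg1 and 7 of 8 Klrg1 cells held Il1rl1, and in Y665H 0 of 14 Dapl1 cells held Klrg1. Among cells without Dapl1, Klrg1 was found in 4.02% in WT and 6.49% in Y665H. With so few Dapl1 cells, these counts of 0 cannot show that the genes lie apart there. Cish was found in 50 of the 63 Klrg1 cells (79.4%) and in 64.1% of the others. These shares were taken over cells of 1 library and have no replicate.

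Identity genes were read in the same way. Of 18 identity genes that passed the filter, 1 was at least 2-fold higher in Y665F, the costimulatory receptor Tnfrsf4 (234, 349 and 517 CPM in WT, Y665H and Y665F), and 1 was at or below 0.5-fold, Gpr83, a G protein-coupled receptor of Treg cells (152, 79.0 and 51.7 CPM), against 1.18% and 0.935% of all genes. Ikzf2, the Helios transcription factor, was at 922, 1120 and 949 CPM, with a ratio of Y665F to WT of 1.03 (0.954 to 1.11). Ctla4, the inhibitory receptor that captures costimulatory ligands, was at 137, 160 and 208 CPM, and Tnfrsf18, the GITR receptor, at 218, 227 and 389 CPM. Ikzf4, the Eos transcription factor, was lower in Y665F, at 133, 145 and 69.9 CPM. Beside Gpr83 and Tcf7, the genes with the lowest upper bounds in Y665F, among those at least 2-fold higher in gated WT cells than in WT B cells, were Tbc1d4, at 131, 156 and 45.9 CPM, Igf1r, at 102, 113 and 35.5 CPM, and Cyth3, at 83.1, 56.7 and 30.3 CPM. They were followed by Itm2a, Kctd2, Zfp827, Actn1, Acss2, Penk and Znrf1, with ratios of Y665F to WT from 0.314 to 0.488.

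Beside neutrophil and myeloid transcripts, histone and proliferation transcripts that few cells carried had high Y665H ratios to WT. Of 12 proliferation genes that passed the filter, of 20 listed, 5 were at least 2-fold higher in Y665H (Mki67, Top2a, Birc5, Cks1b and Ube2c) and 2 in Y665F (Mki67 and Top2a), against 1.77% and 1.18% of all genes. Mki67 was at 33.2 CPM in WT, 197 in Y665H and 67.3 in Y665F, a ratio of Y665H to WT of 5.92 (4.21 to 8.50). A single Y665H barcode held 46.3% of its Mki67 UMIs, and the histone gene Hist1h1b, at 2.49, 301 and 140 CPM, had 50.9% of its Y665H UMIs in 1 barcode. At 2000 UMIs per cell, Mki67 was found in 3.54% of Y665H cells against 4.19% of WT cells, at 3000 UMIs in 5.49% against 2.43%, and without thinning in 9.55% against 5.53%, with overlapping intervals each time. The narrower exclusion of other lineages left 186 Y665H cells, among which the log2 ratio of Mki67 was 1.03 in place of 2.56, and that of Y665F was -0.11 in place of 1.02. There the Y665H log2 ratio of Birc5 was 0.27 in place of 2.17, of Cks1b -0.14 in place of 1.13 and of Ube2c -0.43 in place of 3.02. The Y665F log2 ratio of Top2a was 0.70 in place of 2.27 and of Hist1h1b 0.92 in place of 5.81. In Y665H no named histone gene changed sign with this exclusion. For Hist1h2ae, Hist1h3c, Hist1h2ap and Ifitm3, 1 barcode held between 67.1% and 80.5% of the Y665H UMIs.

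Other Y665H values were spread over more cells. Tnfrsf9, the costimulatory receptor 4-1BB, was at 62.3 CPM in WT, 143 in Y665H and 56.4 in Y665F, with a ratio of Y665H to WT of 2.29 (1.73 to 3.05). Ttn was at 51.5, 289 and 64.2 CPM and was found in 24 WT, 52 Y665H and 49 Y665F cells. The immediate early gene Fos was at 31.6, 110 and 40.2 CPM, and the inhibitory receptor Pdcd1 at 11.6, 36.1 and 15.1 CPM. Penk, which encodes an opioid precursor, was at 19.9, 131 and 6.26 CPM, but its UMIs came from 7 WT, 14 Y665H and 4 Y665F cells. Among the genes lower in Y665H beside Il2ra, Bcl2, Socs2 and Gpr83, Suclg2, an enzyme subunit of the citric acid cycle, was at 52.4, 19.8 and 31.3 CPM, and Mapk8, which encodes the kinase JNK1, at 47.4, 20.6 and 20.9 CPM. Rgs1 was at 416, 276 and 266 CPM and Il6ra at 225, 149 and 179 CPM.

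Several cytokine genes of inflammatory helper cells were not detected at this depth. Il17a, Il17f, Il22 and Il21, and the receptor gene Il23r, were at 0 UMIs in all 3 libraries, which, at 3 UMIs of each library's sum, allows levels of up to 2.49 CPM in WT, 2.58 in Y665H and 1.57 in Y665F. Of 9 genes of this list that passed the filter, 0 were past 2-fold in either allele. Over all 5778 genes, 1.18% were at least 2-fold higher and 0.935% at or below 0.5-fold in Y665F. In Y665H these shares were 1.77% and 0.225%. At these shares, a count of 0 in a list this short is no result about the list. Of 13 genes of the TGF-beta pathway, 0 were past 2-fold, and Tgfbr1, which encodes the signaling receptor chain, was at 80.6, 61.0 and 47.5 CPM. Among 15 interferon genes that passed, 1 was past 2-fold in Y665F, Ly6a (149, 274 and 355 CPM), and 0 in Y665H. Among 16 homing genes, Ccr2 was past 2-fold in both alleles (32.4, 73.9 and 75.2 CPM), with 12, 15 and 45 cells carrying it. With Cd4 required its log2 ratio was 0.87 in Y665F and 0.44 in Y665H, and with thinning 0.58 in Y665H. Of 18 stress and early-response genes, Fosb and Hsph1 were past 2-fold higher in Y665F and Fos in Y665H, and Jun was lower in Y665F at 243, 258 and 120 CPM, though not past 2-fold with TMM scaling. Fosb was also under 2-fold with the narrower lineage exclusion, at a log2 ratio of 0.96. Of 13 metabolic genes, Cpt1a, which brings fatty acids into mitochondria, was past 2-fold in both, at 10.8, 29.2 and 29.2 CPM, but with Cd4 required its log2 ratio was 0.88 in Y665F and 0.73 in Y665H. Of 16 costimulatory and inhibitory receptor genes, Tnfrsf4 was past 2-fold in Y665F and Pdcd1 and Tnfrsf9 in Y665H.

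Conventional CD4 T cells of the same libraries gave part of the same pattern, also for effector and resting genes. Gzmb in Y665F was at 24.5 times WT (11.5 to 62.4) there, against 6.81 in gated cells. Klrg1 was low, at 1.14 CPM in WT and 5.82 in Y665F conventional cells. Tcf7 was at 0.715 times WT (0.681 to 0.750) there, and Satb1 at 775 CPM in WT and 477 in Y665F. Dapl1 was at 2.26 times WT (2.13 to 2.40). In Y665F the ratio to WT there was 5.01 (4.19 to 6.02) for Cish, 7.75 (5.29 to 11.6) for Socs2 and 2.53 (2.41 to 2.66) for Bcl2, against 2.05, 2.38 and 1.25 in gated cells. Il7r was at 0.797 times WT (0.762 to 0.834) in conventional cells and 1.42 times (1.27 to 1.59) in gated cells. Gpr83 was at 0.999 times WT (0.667 to 1.48) in conventional cells and 0.340 times (0.263 to 0.436) in gated cells. Icos was at 1.04 times WT (0.903 to 1.20) in conventional cells and 1.76 times (1.46 to 2.13) in gated cells. In Y665F, Il2ra, Ctla4 and Ikzf2 were 2.22, 2.44 and 2.07 times WT in conventional cells. In Y665H, the ratio in conventional cells was 0.648 for Il2ra, 0.661 for Bcl2 and 0.453 for Socs2, against 0.629, 0.653 and 0.483 in gated cells. There Mki67 was at 2.72 times WT (2.20 to 3.38) and Hist1h2ap at 2.84 (2.51 to 3.22), against 5.92 and 13.3 in gated cells. In B cells Hist1h2ap was at 2.62 times WT. Gpr83 in Y665H was at 1.09 times WT (0.789 to 1.51) in conventional cells and 0.520 in gated cells. The conventional gate can hold Treg cells in which no Foxp3 UMI was found, the gated share was also highest in Y665F, and the part of this in those values was not tested. The difference between the cell types was not tested, as each genotype is 1 library.

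**Figure D5:**
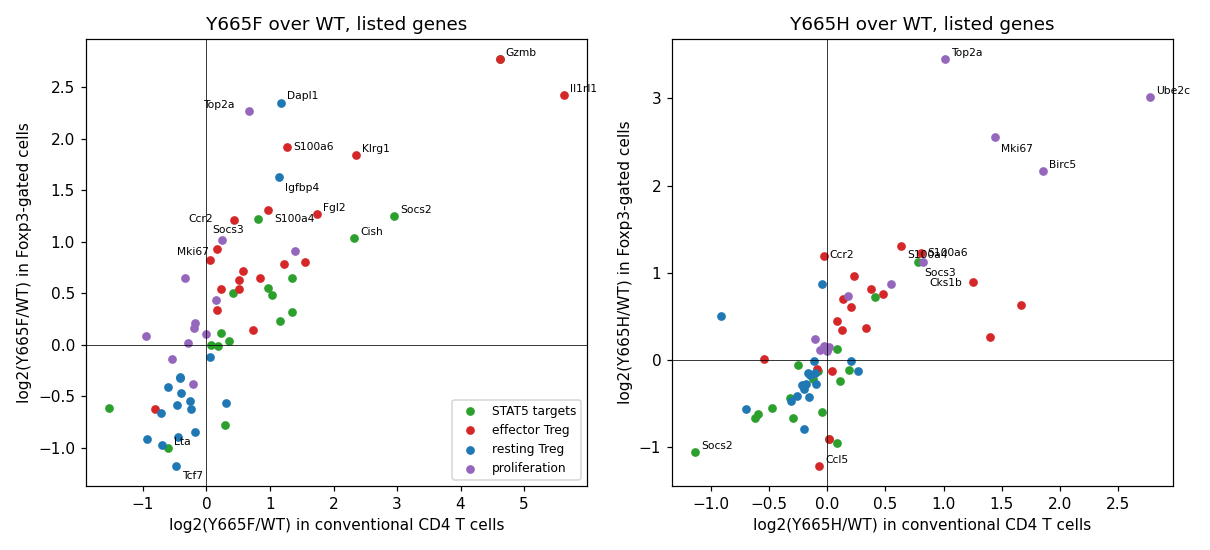
Log2 ratio of each allele to WT in Foxp3-gated cells (vertical axis) against the same ratio in conventional CD4 T cells (horizontal axis), for genes of 4 lists that passed the level filter. Gzmb, Il1rl1, Klrg1 and Dapl1 lie in the upper right in Y665F, most resting genes other than Dapl1 and Igfbp4 lie below 0, and in Y665H the proliferation genes Top2a, Mki67, Ube2c and Birc5 stand apart from the others.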

How the data were processed

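The deposited spleen matrices hold raw UMI counts for each gene and barcode. Per the labels, Cell Ranger 5.0 and the mm10 build were used, and the file headers name another Cell Ranger version. The barcode and gene tables hold names only. The labels name a 3′ kit and the methods a 5′ kit. Lymph node, bone marrow and receptor libraries were not analysed here. Members, lists and gates were chosen with earlier results of these data known. The 3 libraries held 40480676, 47206322 and 36889328 counts (WT, Y665H, Y665F). Counts were summed per library over gated cells, and ratios used genes with a mean of at least 20 CPM. A library without a UMI was set to 3 UMIs. Doublets were not called. Gated cells were tested against conventional CD4 T cells with edgeR 4.0.16 (TMM, Benjamini-Hochberg) on 6 sums. Conventional cells come from the same libraries, which therefore pair the sums. Named genes were those past 2-fold or defining a list, the 12 per direction with the ratio interval farthest from 1 (5 without a condition on B cells), and the 10 largest differences from conventional cells with a mean of 20 CPM over the 6 sums. Mx1 and Aldoa had no unique row. The edgeR step was tested on simulated data. Alternatives used DESeq2 1.42.0 and other gates, depths and scalings. Analyses used Python 3.11.15 and R 4.3.3. Some genes of the lists, and ratios within 2 subsets of the gated cells, are not reported here.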

Additional observations from a re-analysis of the deposited data

How the results depend on the processing

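The ratio of the gated share to WT stayed within its interval under every alternative but the strictest exclusion of other lineages, which gave 1.24 for Y665F and 0.629 for Y665H. With all cells that passed the limits as the denominator, the Y665H ratio was 0.785 (0.644 to 0.956), an interval below 1. The counts of genes past 2-fold differed more between settings. In Y665F, higher and lower genes numbered 106 and 101 with at least 2 Foxp3 UMIs, 168 and 233 with cells thinned to 2000 UMIs, 27 and 22 with a mean CPM filter of 50, and 280 and 350 with a filter of 5. Lower genes in Y665F numbered 102 with Cd4 required and 30 with TMM scaling. In Y665H, higher and lower genes numbered 243 and 136 with thinning, 26 and 3 with the filter of 50, and 476 and 218 with the filter of 5. Higher genes in Y665H numbered 66 with the narrower lineage exclusion, and lower genes numbered 56 with at least 2 Foxp3 UMIs, 49 with Cd4 required and 23 with TMM scaling. The filters of 50 and 5 count over other sets of genes. TMM scaling shifts every log2 ratio by the same amount, 0.12 in Y665F and -0.07 in Y665H. The cause of the other shifts was not tested. The ratios were not computed under the strictest exclusion, which left 7 Y665H cells. The narrower lineage exclusion and the exclusion of each gene's top barcode were chosen after seeing the data.

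Against conventional CD4 T cells, the count of higher and lower genes was 247 and 73 of 13343 tested by DESeq2. It was 68 and 27 of 4497 with the strictest exclusion, and 197 and 93 of 7794 with thinning. Without the replicate block, that is without the pairing by library, it was 253 and 84. When each spleen library was left out in turn, higher genes ranged from 345 to 407 and lower genes from 152 to 158.

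Some log2 ratios of named genes that were past 2-fold changed sign. With the narrower exclusion they were Hist1h2ab (-0.67), Hist1h2ap (-0.36) and Mki67 (-0.11) in Y665F, and Cks1b (-0.14) and Ube2c (-0.43) in Y665H. With thinning they were Hist1h3c (-0.12) in Y665F and Birc5 (-0.62) in Y665H. With at least 2 Foxp3 UMIs, Ccl5 (0.38) and Ube2c (-0.29) in Y665H changed sign, and with Cd4 required Ccl5 (0.39) and Ube2c (-0.08).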
